A study of Mus musculus with 3 samples.

Results

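The 9 genes described here encode the mouse machinery that shows peptides from inside the cell to CD8+ T cells, and they were chosen by name from the 32285 genes of the deposited matrices, all 9 being present. They are the heavy chains H2-K1 and H2-D1, the light chain B2m, the peptide transporter subunits Tap1 and Tap2, the loading chaperone Tapbp, the immunoproteasome subunits Psmb8 and Psmb9, and the transcriptional regulator Nlrc5. The study took CD45+ cells, that is blood-derived cells, from whole mouse aortas with their adventitia, sorted live nucleated ones and counted their RNA in droplets, with 1 library in each of 3 groups. All mice were labelled ApoE-/- on the C57BL/6J background, a model in which lipoproteins are cleared poorly and atherosclerosis develops. By these labels the control group carried the same gene disruption as the others. The control group had no further treatment in its labels, the HHcy group drank homocysteine at 1.8 g/L for 4 weeks, and the WD group ate a western diet for 4 weeks. Ages, sexes and the number of aortas pooled in each library were not given in the sources used here.

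With 1 library in a group there is no replicate check of any difference, and no test between groups was made. Each library held between 7512 and 9753 cell barcodes with 66789257 to 105180370 unique molecular identifiers (UMIs, each standing for 1 captured RNA molecule), and 5349 control, 6330 cells labelled HHcy and 5273 WD cells were used after quality and doublet limits. Apoe itself goes against a label. It had 39368 UMIs in the library labelled HHcy, or 374 CPM (UMIs per 1e6 UMIs), where the control and WD libraries had 16.3 and 19.3 CPM. The labels do not say which bases of Apoe are disrupted, so these counts do not settle the genotype of any library. All 3 libraries carry the same genotype label, and the cause of the difference was not tested. In ratios of the library labelled HHcy to the control, a difference of genotype cannot be told apart from homocysteine. This sample is therefore called the library labelled HHcy. The libraries shared 63 of 25757 barcode sequences. Levels are UMIs of a gene as CPM of all UMIs of a class in 1 library. The 95% intervals given are exact and cover counting error only, not the spread between mice or preparations.

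In class I presentation, proteasomes cut proteins into peptides, the TAP transporter moves these into the endoplasmic reticulum, and tapasin helps load them onto a heavy chain paired with beta-2 microglobulin, which then reaches the cell surface. Interferons raise the genes of this pathway and exchange the constitutive catalytic subunits of the proteasome for inducible ones. NLRC5 acts at class I promoters together with factors bound to conserved promoter boxes, and it is known for high levels in lymphocytes.

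The members sit on 3 mouse chromosomes. In the GRCm38 build with GENCODE M21 annotation, 7 of the 9 are protein-coding genes of the MHC region on chromosome 17. Tapbp spans chr17:33915899-33929292 on the plus strand and H2-K1 chr17:33996017-34000347 on the minus strand. Psmb9 (chr17:34181987-34187764, minus strand), Tap1 (chr17:34187553-34197225), Psmb8 (chr17:34197721-34201454) and Tap2 (chr17:34203527-34216321, all 3 on the plus strand) lie side by side, and H2-D1 lies at chr17:35262730-35267499 on the plus strand. B2m is at chr2:122147686-122153083 and Nlrc5 at chr8:94434356-94527272, both on the plus strand. The Ensembl identifiers of all 9 were the same in the matrices and in the annotation (ENSMUSG00000061232 for H2-K1, ENSMUSG00000073411 for H2-D1, ENSMUSG00000060802 for B2m, ENSMUSG00000074151 for Nlrc5). H2-K1 and H2-D1 are close relatives, so their transcript ends were compared with other genes: none of 82 stretches of 91 bases from the last 500 bases of any member occurred in another gene.

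Promoters of 7 members, from 250 bases before to 50 after the start, were found in RefSeq sequences of GRCm38.p6, and Tap2 and Nlrc5 had no entry. For H2-D1, Tap1 and Psmb8 all 250 bases before the RefSeq start lie in annotated exons of GENCODE M21, so the stretches shown for them are also annotated as transcribed, where H2-K1 has 0 such bases. The stretches below are shown because they carry letters of the motifs searched, each on both strands. These letters are an interferon response element core (GAAA, 2 bases of any kind, GAAA), a STAT core (TTC, 3 bases of any kind, GAA), an NF-kappaB-like box (GGGGA, any base, TCCC) and the CCAAT box. Capitals mark matched letters. The 2 matches of the NF-kappaB-like box in each heavy chain stretch overlap, being the same bases read on both strands.
H2-K1 (chr17:34000348-34000597, minus strand): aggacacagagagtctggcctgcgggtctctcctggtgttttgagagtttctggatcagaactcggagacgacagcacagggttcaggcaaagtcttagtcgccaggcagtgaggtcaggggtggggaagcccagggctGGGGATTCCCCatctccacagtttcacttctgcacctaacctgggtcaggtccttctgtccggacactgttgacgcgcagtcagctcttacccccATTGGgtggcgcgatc
H2-D1 (chr17:35262913-35262942, plus strand): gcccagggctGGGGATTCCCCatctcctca
B2m (chr2:122147437-122147685, plus strand): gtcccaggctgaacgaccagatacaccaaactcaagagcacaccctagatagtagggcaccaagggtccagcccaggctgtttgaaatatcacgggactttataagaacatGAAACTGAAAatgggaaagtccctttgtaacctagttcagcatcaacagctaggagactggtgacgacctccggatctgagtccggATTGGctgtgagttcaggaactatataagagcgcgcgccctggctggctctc
Tap1 (chr17:34187322-34187351, plus strand): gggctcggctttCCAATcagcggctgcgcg
Psmb8 (chr17:34198088-34198117, plus strand): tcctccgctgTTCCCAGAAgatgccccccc
The letters of the NF-kappaB-like box stood in the 300-base windows of H2-K1 and H2-D1 alone among the 7, and in 0.323% of 32851 mouse promoters. The windows of these heavy chain genes shared an identical run of 47 bases. The exact letters of the interferon element core were found in B2m only (3.44% of all promoters), and those of the STAT core in Psmb8 only (8.30%). Elements with other letters or spacing were not searched, so a window without a match may still hold one of them. CCAAT occurred in 6 of the 7, all but Psmb8, against 37.4% of all promoters, and TGACGT, the core of the cyclic AMP response element, in none of the 7 and in 7.51% of all. Tap1 and Psmb9 are transcribed away from each other from starts 225 bases apart, so their windows share 275 bases and 1 CCAAT match serves both. These matches describe letters, not bound sites.

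Cells were grouped without the 9 genes or the other pathway lists, so class levels are not what the groups were made from. Of the 15 immune clusters the study states, classes of at least 50 cells in every library were rebuilt here for B-like cells (2190 control, 3644 labelled HHcy and 1203 WD cells), T-like cells (109, 159 and 106), macrophage- and monocyte-like cells (2009, 1241 and 2689), conventional dendritic-like cells (392, 220 and 332) and neutrophil-like cells (176, 373 and 248). Values given in threes follow this order of libraries: control, labelled HHcy, WD. In these 5 classes the 9 genes together made up between 0.498% and 0.937% of all UMIs. The chains that form the class I molecule itself (H2-K1, H2-D1 and B2m) held 78.1% to 91.9% of the members' UMIs.

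The heavy chains did not follow each other across the 5 classes, and highest and lowest are meant among these 5 here and in the paragraphs on the other members. H2-K1 was highest in T cells at 2677, 2147 and 2499 CPM and lowest in neutrophils at 973, 1027 and 912 CPM, a difference of 2.75, 2.09 and 2.74 times within the 3 libraries. H2-D1 was lowest in B cells in every library, at 1322, 1536 and 1594 CPM. Its highest level was in macrophages and monocytes, at 2603, 2805 and 2682 CPM, except in the library labelled HHcy, where neutrophils reached 2863 CPM and the intervals of both classes overlapped. B2m, the light chain that every class I molecule needs, was highest in macrophages and monocytes (3984, 3349 and 3978 CPM). It was lower in T cells (3102, 2551 and 3163 CPM) and in conventional dendritic cells (2479, 2196 and 2954 CPM), and lowest in B cells and neutrophils, between 1702 and 2205 CPM. Every library thus placed T cells first for H2-K1 and macrophages first for B2m among these 5 classes.

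The transporter and the loading chaperone were spread in another order. Tap1 was at 181, 140 and 134 CPM in T cells and 167, 174 and 187 CPM in conventional dendritic cells. These classes could not be told apart in the control library and the library labelled HHcy. B cells held 104, 117 and 129 CPM, macrophages and monocytes 97.7, 95.2 and 96.6 CPM, and neutrophils 68.8, 74.1 and 69.1 CPM, the lowest in every library. Tap2 was highest in T cells in all 3 libraries, at 150.3, 135 and 147 CPM, and next in conventional dendritic cells at 102, 102.5 and 104 CPM. Its levels in B cells, macrophages and neutrophils lay between 35.9 and 67.4 CPM. Tapbp, which encodes tapasin, was the most even member: its highest class, conventional dendritic cells, was only 1.84, 1.58 and 1.68 times its lowest. For Tapbp these cells could not be told apart from macrophages and monocytes in the control library and the library labelled HHcy.

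The immunoproteasome subunits were highest in conventional dendritic cells among these 5 classes. Psmb8 was at 561, 676 and 774 CPM in conventional dendritic cells and at 76.7, 142 and 91.2 CPM in neutrophils, a span of 7.31, 4.74 and 8.49 times. T cells stood next among these 5 classes at 346, 443 and 424.5 CPM. Psmb9 had the same ends, with 360.5, 388 and 364 CPM in conventional dendritic cells and 65.4, 138 and 76.4 CPM in neutrophils. In B cells Psmb9 was at 141, 156 and 159 CPM and in macrophages and monocytes at 137, 139.9 and 132 CPM. Nlrc5 had the widest span in the control library: 185 CPM in T cells against 15.8 CPM in neutrophils, or 11.7 times. T cells were first for Nlrc5 in the other libraries too, at 77.8 and 86.4 CPM, followed by conventional dendritic cells at 46.6, 32.0 and 42.6 CPM. B cells (24.4, 23.6 and 26.5 CPM) and neutrophils (15.8, 17.0 and 22.1 CPM) could not be told apart for Nlrc5 in any library.

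**Figure D1:**
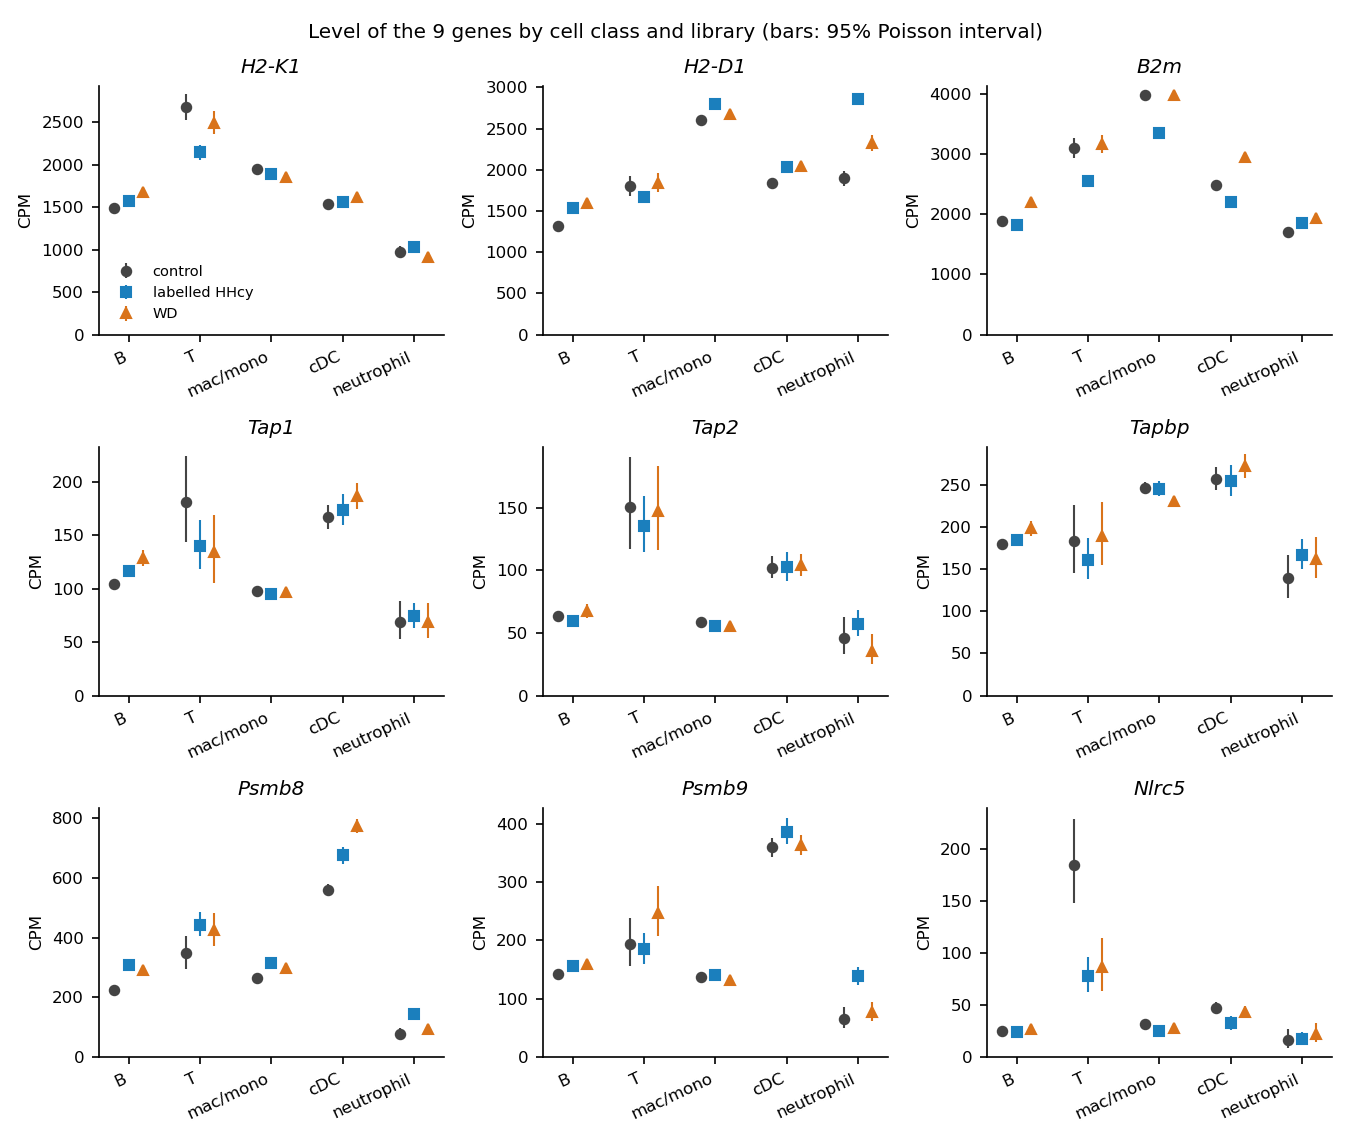
Level of each of the 9 genes in CPM (vertical axes, linear from 0) in 5 cell classes (horizontal axes) and 3 libraries (symbols), with 95% Poisson intervals as bars. H2-K1, Tap2 and Nlrc5 are highest in T cells, B2m in macrophages and monocytes, and Tapbp, Psmb8 and Psmb9 in conventional dendritic cells in all 3 libraries. The Tapbp intervals of conventional dendritic cells overlap those of macrophages and monocytes in the control library and the library labelled HHcy.

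Classes with enough cells in only some libraries widened the range. Fibroblast-like cells, which are not CD45+ cells by origin, numbered 85 in the library labelled HHcy and 159 in WD. Their H2-K1 was at 708 and 1002 CPM and their B2m at 1183 and 1939 CPM, while Nlrc5 was counted 7 and 3 times in all (9.25 and 2.12 CPM). Their Psmb9 was at 34.3 and 50.8 CPM, the lowest of the classes measured there, although in WD its interval overlapped that of neutrophils. Plasma-like cells passed the limit of 50 cells only in the library labelled HHcy (69 cells), where B2m was at 3257 CPM, H2-K1 at 1756 CPM, Psmb8 at 454 CPM and Nlrc5 at 12.4 CPM. B2m there could not be told apart from its level in macrophages and monocytes. H2-D1 of the plasma-like cells, at 1433 CPM, was below that of B cells.

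At the level of single cells the chains were nearly everywhere and Nlrc5 was not. After each cell was thinned to 2000 UMIs, the median B cell held 11, 11 and 13 UMIs of the 9 genes together, the median T cell 18.5, 15 and 19, and the median macrophage or monocyte 18, 16 and 18. A UMI of H2-K1 was found in 93.5%, 94.6% and 94.6% of T cells and in 77.0%, 84.2% and 79.4% of neutrophils. Nlrc5 was seen in 37.0%, 17.4% and 27.2% of T cells but in 5.77%, 4.47% and 6.31% of B cells at the same depth. Without thinning, the T cell shares were 47.7%, 37.7% and 33.0%. Of the thinned fibroblasts, 2 of 60 cells labelled HHcy (3.33%) and 0 of 126 WD cells held an Nlrc5 UMI, the second allowing a share of up to 2.89% at the upper end of its interval. The T cell shares of the same libraries were above these, with intervals that did not overlap. In the library labelled HHcy they were 11.7% to 24.5% for T cells and 0.406% to 11.5% for fibroblasts. Fibroblast shares come from cells and not from empty droplets, so they do not measure free RNA, whose part was not tested. The control library had 30 fibroblasts, too few for this comparison.

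Ratios between paired genes within a class do not depend on the class total. H2-K1 gave 1.48, 1.28 and 1.36 UMIs for each UMI of H2-D1 in T cells and 1.13, 1.03 and 1.05 in B cells. In macrophages and monocytes the ratio was 0.750, 0.673 and 0.695, in conventional dendritic cells 0.839, 0.768 and 0.792, and in neutrophils 0.513, 0.359 and 0.392. The B and T cell classes thus had more H2-K1 than H2-D1 UMIs and the myeloid classes fewer, in every library. Over sub-clusters of at least 20 cells, each taken per library, the ratio was above 1 in 8 of 8 T cell and 15 of 18 B cell values. The 3 B cell exceptions were 1 sub-cluster, led by Vpreb3 and Spib, at 0.993, 0.905 and 0.876. It was above 1 in 1 of 11 conventional dendritic, 0 of 29 macrophage and monocyte and 0 of 6 neutrophil values. Capture can differ between the 2 transcripts, so the ratio is read across classes and not as a ratio of molecules in the cell.

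The inducible proteasome subunits were set against the constitutive ones they replace. Psmb8 replaces Psmb5, and their ratio was 3.71, 3.88 and 4.02 in conventional dendritic cells and 3.18, 3.04 and 2.89 in T cells. It was 2.08, 2.40 and 2.14 in macrophages and monocytes, and 0.773 (labelled HHcy) and 0.819 (WD) in fibroblasts. Psmb9 replaces Psmb6, and their ratio was 1.62, 1.57 and 1.71 in B cells, 0.844, 0.992 and 0.667 in macrophages and monocytes, and 0.220 and 0.287 in fibroblasts. The immune classes therefore carried more inducible than constitutive UMIs for Psmb8 in every library, while for Psmb9 macrophages and monocytes did not. Neutrophils of the library labelled HHcy stood apart at 4.73 UMIs of Psmb9 for each UMI of Psmb6, where the control had 1.32 and WD 1.73. The ratio of Psmb10 to Psmb7 was ordered otherwise. Neutrophils were at 0.743, 0.681 and 0.412, with a control interval (0.429 to 1.27) that spanned 1. Plasma-like cells labelled HHcy were at 0.790. Conventional dendritic cells, at 1.05, 1.29 and 1.11, were below B cells, T cells, macrophages and monocytes in every library. B cells were at 1.37, 1.52 and 1.58, and macrophages and monocytes at 1.48, 1.63 and 1.41.

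**Figure D2:**
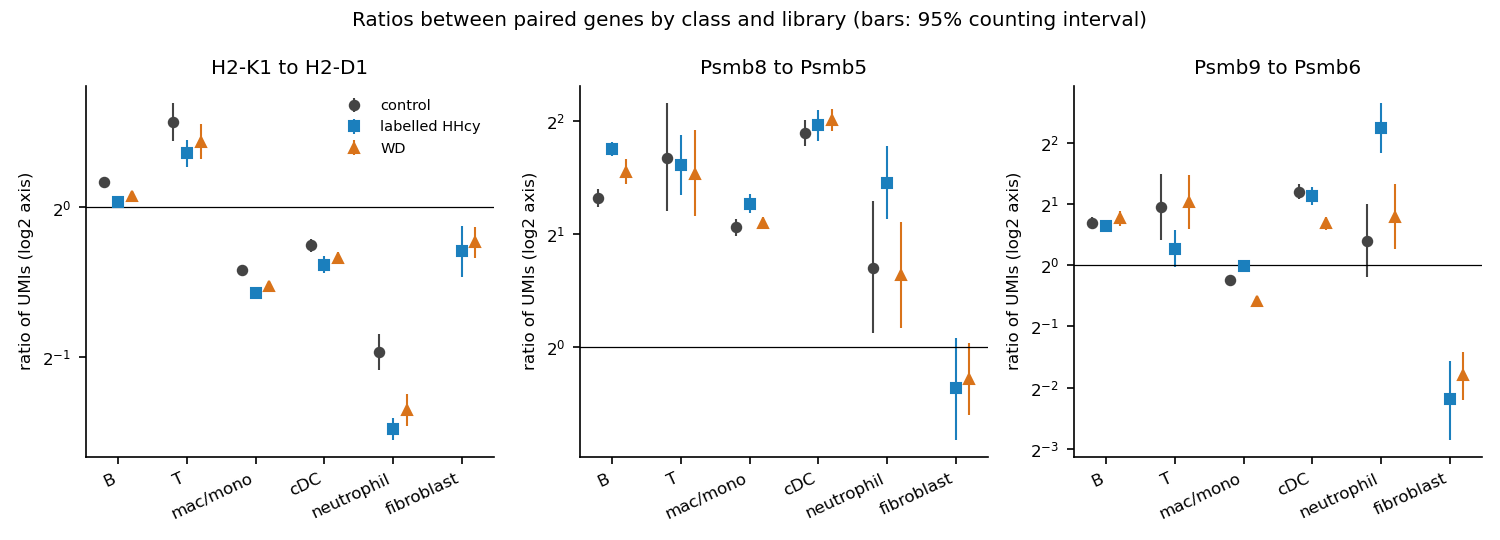
UMIs of 1 gene divided by those of its partner (log2 vertical axes) for H2-K1 to H2-D1, Psmb8 to Psmb5 and Psmb9 to Psmb6, by cell class and library, with 95% counting intervals as bars; control fibroblasts are not shown for want of cells. H2-K1 to H2-D1 is above 1 in B and T cells and below 1 in the other classes.

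The members also differed between cell states of 1 class. Among dendritic cells of the control library, the mature-like cells (led by Ccr7 and Fscn1) held 2891 CPM of H2-K1, 927 CPM of Psmb8 and 136 CPM of Nlrc5. The type 1-like cells, which are known for cross-presentation, held 1020 CPM of H2-K1 and 1513 CPM of B2m and 548 CPM of Psmb9, the highest Psmb9 of the 3 named dendritic subsets beside the lowest H2-K1 and B2m. Type 2-like cells were lower in the loading and proteasome genes, with 215 CPM of Psmb9 and 22.8 CPM of Nlrc5. Psmb8 of type 2-like cells was at 394, 585 and 544 CPM, beside 421, 497 and 504 CPM in classical monocyte-like cells. In the other libraries type 1-like cells held 887 and 1124 CPM of H2-K1 with 565 and 694 CPM of Psmb9, and mature-like cells 2861 and 2520 CPM of H2-K1. For Psmb8 the control order did not stand in the library labelled HHcy, where mature-like cells held 762 CPM and type 1-like cells 765 CPM.

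Monocytes and macrophages were split in the same way. Non-classical monocyte-like cells had the highest B2m of any sub-cluster shown, 5782, 5042 and 6315 CPM, with 2923, 2762 and 2699 CPM of H2-K1. Classical monocyte-like cells had 421, 497 and 504 CPM of Psmb8, whereas resident-like macrophages (led by Selenop, Pf4 and Mrc1) had 123, 176 and 211 CPM. A sub-cluster led by Prg4, Saa3 and Fn1 had the highest H2-D1 among macrophages of the control library, 3737 CPM, and 4188 and 4633 CPM in the others. Foamy-like macrophages (led by Lgals3, Spp1 and Fabp5) held 210 CPM of Psmb8 and 13.1 CPM of Nlrc5 in the control library, the latter from 24 UMIs.

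In B cells, 2 small sub-clusters stood out after their values were seen. A naive follicular-like sub-cluster led by Slfn5, Ifi203, Shisa5 and Trim30a counted 25, 86 and 31 cells. It had 259, 226 and 239 CPM of Tap1, against 104, 117 and 129 CPM for all B cells, and 104, 79.8 and 76.7 CPM of Nlrc5. A sub-cluster led by Hmgb2 and Stmn1, genes of cycling cells, had 434, 544 and 466 CPM of Psmb8 and 374, 389 and 359.7 CPM of Psmb9, more than 2 times the B cell level of Psmb9. Its H2-K1 was at 1169, 1370 and 1853 CPM, below the class value in the control library and the library labelled HHcy and above it in WD.

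**Figure D3:**
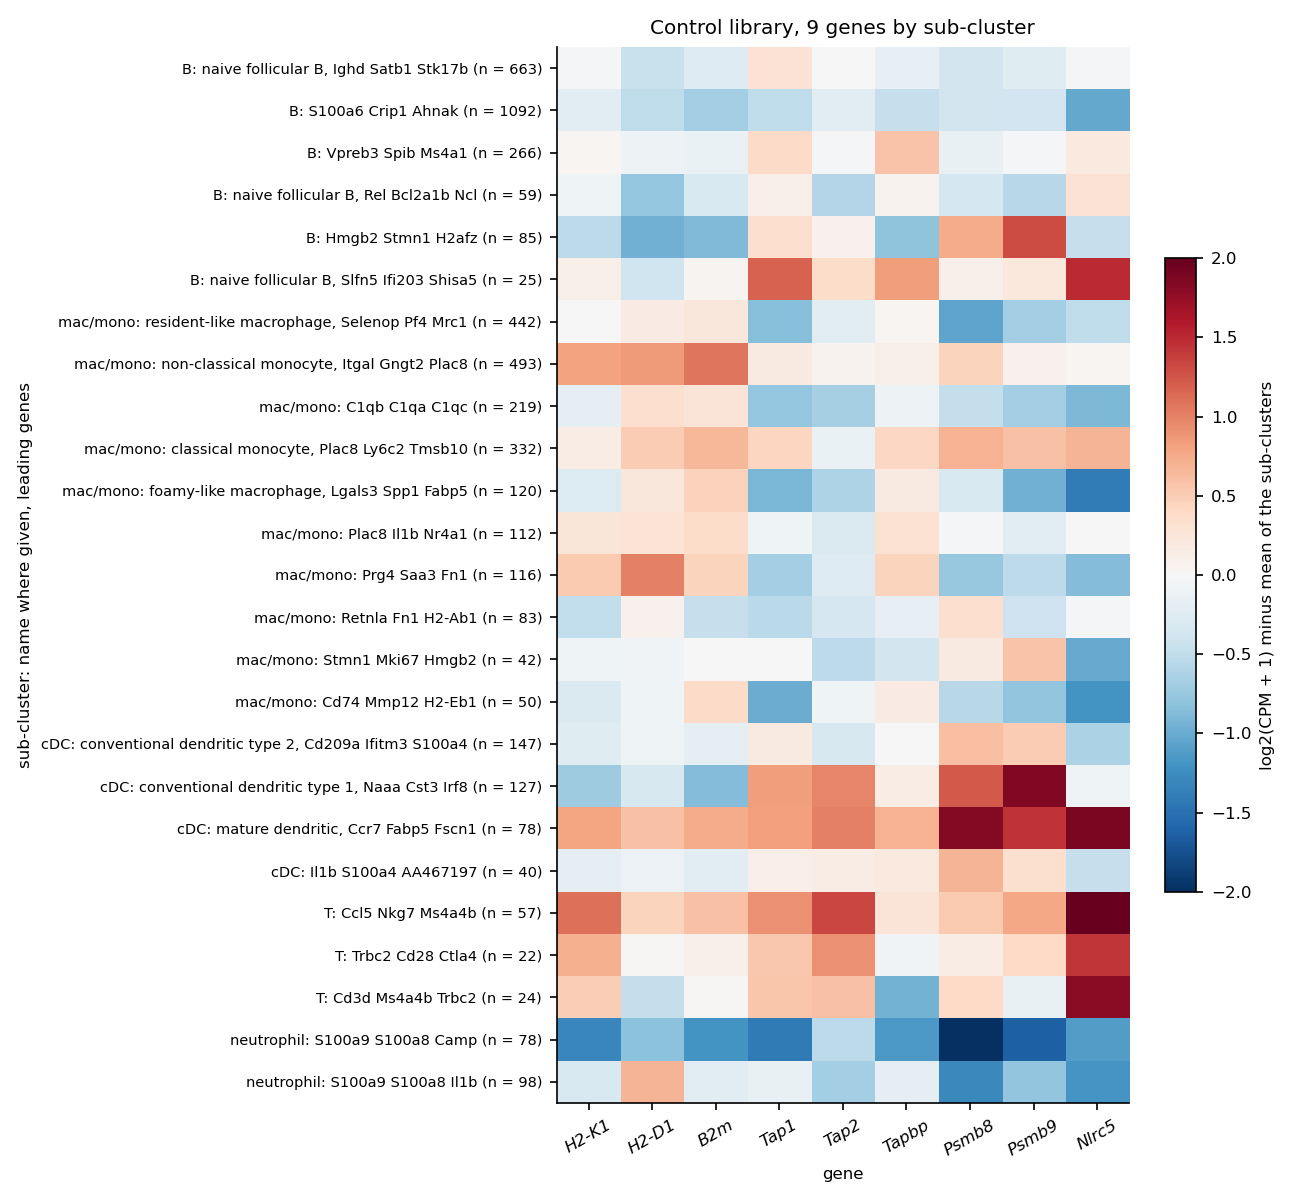
Level of the 9 genes (columns) in each sub-cluster of at least 20 cells of the control library (rows, with class, leading genes and number of cells), as log2(CPM + 1) minus the gene's mean over the sub-clusters; red is above and blue below that mean. Mature dendritic-like cells and T cells led by Ccl5 are high for most genes, and both neutrophil clusters are low for Psmb8 and Psmb9.

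Some members shared their class pattern and others did not. Over 15 points (5 classes in 3 libraries, which share cells of 1 library and its depth), log2(CPM + 1) of Psmb8 and Psmb9 correlated with a Pearson r of 0.94, Tap1 and Psmb8 with 0.91, and Tap2 and Nlrc5 with 0.88. H2-K1 and H2-D1 had an r of -0.17. Of 5625 genes with at least 20 CPM on average, the nearest to the mean profile of the 9 members were Eva1b (r of 0.97), Higd1a (0.96), Runx3 (0.96), Crybg1 (0.96) and Washc1 (0.95). The nearest to H2-D1 was Irf7, and the nearest to Tap2 was Tnfrsf4. With so few points and so many genes these are descriptions of likeness only.

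With each class taken as a whole, the libraries differed little for the 9 genes in B cells, macrophages and monocytes. Some members had larger ratios in T cells and neutrophils, where more of all genes also passed the limit given below. The question asked of the 2 comparisons, labelled HHcy to control and WD to control, is whether homocysteine or the western diet went with other levels of the presentation genes; both use the same control library, so they are not independent. They are called HHcy and WD for short, HHcy standing for the library so labelled. A member was counted as higher or lower when its log2 ratio was at least 0.5 in size. The same limit was applied to all genes with at least 20 UMIs over both libraries of the class. In B cells, 0 of 9 members were higher or lower in either comparison. Of all genes in B cells, 7.04% were higher and 11.7% lower for HHcy, and 5.9% and 6.14% for WD. In macrophages and monocytes, 0 of 9 passed too, against 5.8% of genes higher and 7.53% lower for HHcy and 7.22% and 7.93% for WD. Of the 36 member ratios in these classes, 32 were under 0.3 in size and the largest was 0.47, although 23 had a counting interval that left out 0.

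Psmb8 was the member with the most even library difference. In B cells it went from 222 CPM in the control to 307 CPM in the library labelled HHcy, a log2 ratio of 0.47 (95% interval 0.41 to 0.52), and to 290.0 CPM in the WD library, a log2 ratio of 0.38 (0.32 to 0.45). In conventional dendritic cells the log2 ratios were 0.27 and 0.46, the second with an interval of 0.40 to 0.53. In macrophages and monocytes they were 0.25 and 0.17, from levels of 264, 314.5 and 297 CPM. Psmb8 was above its control level in all 5 classes of both other libraries, by less than 0.5 except in neutrophils labelled HHcy, but in WD the counting intervals of T cells (-0.00 to 0.59) and neutrophils (-0.21 to 0.72) spanned 0. The neutrophil ratio for WD lay between -0.09 and 0.87 over the alternatives run. H2-D1 in B cells was at log2 ratios of 0.22 and 0.27. B2m went apart between the libraries, at -0.25 in macrophages and -0.18 in conventional dendritic cells for HHcy and at 0.00 and 0.25 for WD. The median over the 9 members in B cells was 0.08 for HHcy, beside -0.03 for all genes, and 0.18 for WD, beside 0.01 for all genes. In macrophages and monocytes it was -0.04 and -0.05, beside -0.05 and -0.03 for all genes. The B cell mix differed between the libraries: the sub-cluster led by Ighd and Satb1 held 30.3%, 66.9% and 36.8% of B cells, and the one led by S100a6 and Crip1 49.9%, 17.9% and 37.2%. With the sub-clusters held at the same mix, the B cell median was -0.058 for HHcy and 0.12 for WD. Among naive follicular-like B cells, Tap1 was at 142, 122 and 160.3 CPM and H2-K1 at 1632, 1582 and 1783 CPM, so both were lower for HHcy there, opposite to the class ratios of 0.17 and 0.08. Nlrc5 in these cells was at 38.8, 26.0 and 35.6 CPM.

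Conventional dendritic cells had 1 member past the limit. Nlrc5 went from 46.6 CPM in control cells to 32.0 CPM in those labelled HHcy, a log2 ratio of -0.54 (95% interval -0.89 to -0.20), where 8.21% of all genes were lower and 10.8% higher. For WD, 0 of 9 passed (8.98% of genes higher, 10.9% lower), and Nlrc5 was at 42.6 CPM with a ratio of -0.13. No alternative setting was run for this class. The mature-like cells, which held 125 of the control Nlrc5 UMIs, were 19.9%, 15.5% and 28.9% of it. Neutrophil markers in this class summed to 314, 1746 and 670.2 CPM (12 of 12 detected in each library), and their part in the result was not tested.

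**Figure D4:**
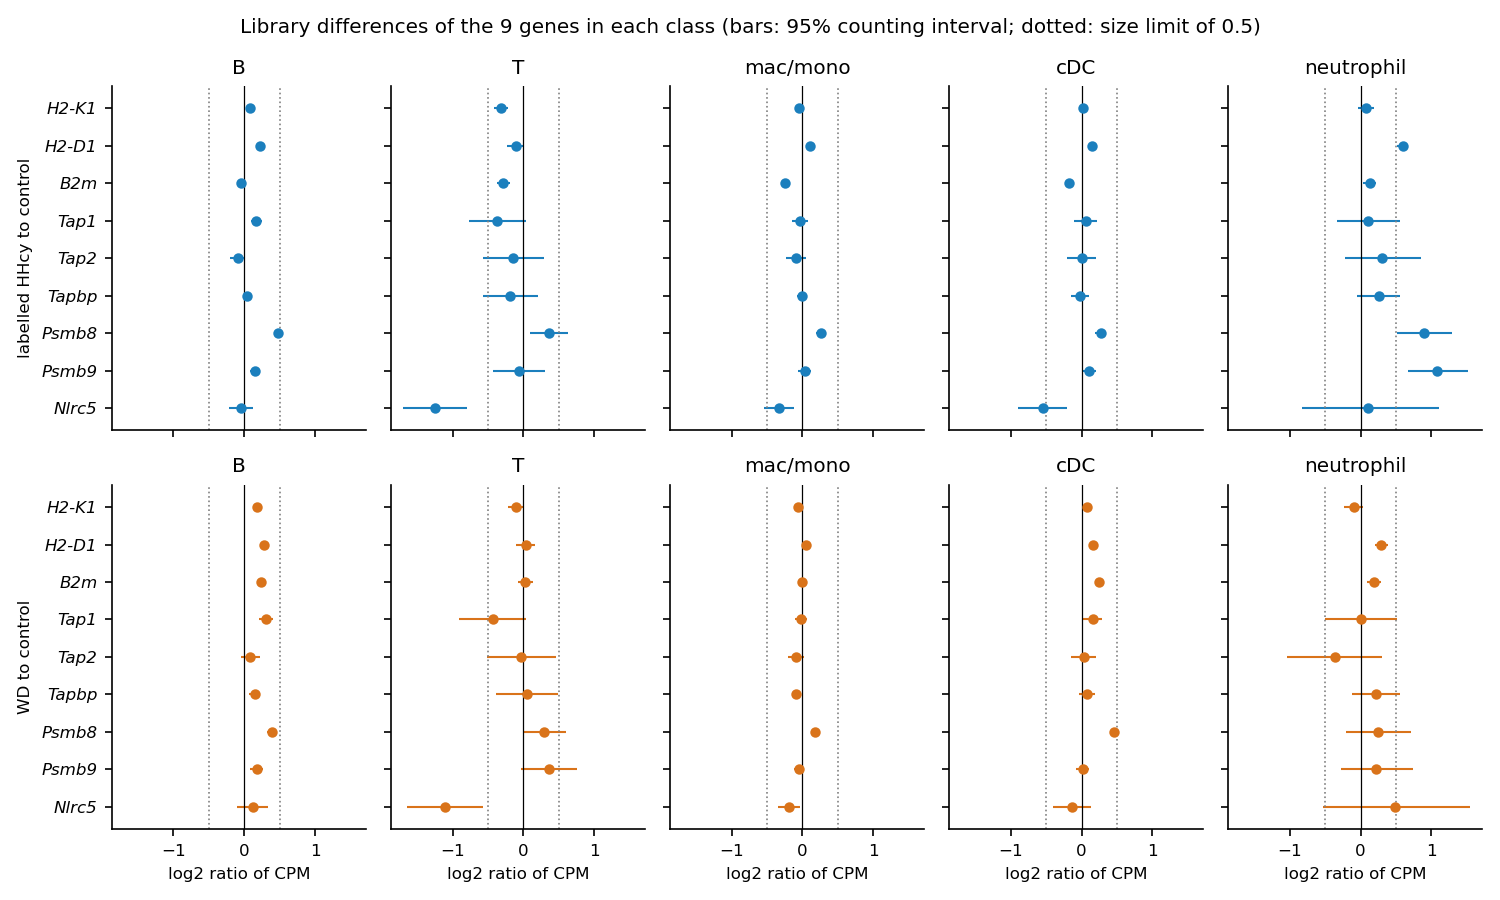
Log2 ratio of CPM for each of the 9 genes in 5 cell classes, library labelled HHcy to control above and WD to control below, with 95% counting intervals as bars and dotted lines at the limit of 0.5 either way. Nlrc5 in T cells is past the limit in both rows, and H2-D1, Psmb8 and Psmb9 are past it in neutrophils of the upper row.

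Nlrc5 in T cells had the largest library difference in size of the 9 genes over the 5 classes. It was counted 85 times in 109 control cells (185 CPM), 85 times in 159 cells labelled HHcy (77.8 CPM) and 47 times in 106 WD cells (86.4 CPM). The control library was high and the other libraries were close to each other. The log2 ratios were -1.25 (95% interval -1.70 to -0.80) for HHcy and -1.10 (-1.65 to -0.57) for WD. Nlrc5 was the only 1 of 9 members past the limit in each comparison, where 20.6% of all T cell genes were lower and 14.8% higher for HHcy, and 12.9% lower and 17.9% higher for WD. No single cell carried the counts: the most in 1 cell was 4 UMIs, or 4.71% of the control count. When doublets were kept, the ratios were -0.46 for HHcy and -0.78 for WD, with the cells led by Ccl5 and Nkg7 then grouped with NK cells. The median member ratio in T cells was -0.18 for HHcy, beside -0.06 for all genes, and 0.03 for WD, beside 0.07.

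The T cell difference was looked at within sub-clusters, chosen after the class values were seen. Cells led by Ccl5, Nkg7 and Gzma, with Cd8a at 628, 363 and 331 CPM, made up 52.3%, 34.6% and 49.1% of T cells. Their Nlrc5 was at 314, 158 and 121 CPM, the highest of all control sub-clusters. The log2 ratios were -0.99 for HHcy (-1.59 to -0.40) and -1.38 for WD (-2.10 to -0.69). In cells led by Cd28, Ctla4 and Icos, Nlrc5 was at 99.4, 57.6 and 60.2 CPM from 9, 14 and 9 UMIs, and both intervals of the ratio spanned 0. In cells led by Lef1 and Satb1 it was at 129, 66.3 and 135 CPM, the last from 16 cells, so the WD value of this sub-cluster was close to the control value. With the sub-clusters held at the same mix in each library, the class ratios were -0.96 and -0.94. Markers of other cells differed between these T cell pools: the summed level of 23 macrophage and monocyte markers was 1248, 884 and 1544 CPM (20, 21 and 22 detected), and that of 9 plasma cell markers 1305, 872 and 127 CPM (8, 9 and 6 detected). Markers at 0 included Fcgr1 in the control, Fcgr4 labelled HHcy, Ace in both others, and Sdc1 in WD. Their part in the result was not tested.

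Other pathway genes of T cells varied with the same small counts. Of 16 listed regulators measured for HHcy, 6 were lower and 0 higher past the limit, where 20.6% of all T cell genes were lower and 14.8% higher. Irf8, an interferon regulatory factor, was at 69.7, 29.3 and 23.9 CPM, log2 ratios of -1.25 and -1.54. Tapbpl, a tapasin relative that edits the loaded peptide, was at 89.3, 47.6 and 53.3 CPM, ratios of -0.91 and -0.74. Ifng, the interferon that activated T cells release, was at 272 CPM in the control and 65.0 CPM labelled HHcy (-2.07, -2.51 to -1.64). However, 1 control cell gave 42 UMIs, or 33.6% of the control count. Ifng UMIs numbered 125 in the 109 control cells, 71 in the 159 labelled HHcy and 105 in the 106 WD cells. In WD, 1 cell gave 21.0% of them. Socs3, an inhibitor of cytokine signalling, was at 65.4, 129 and 108 CPM. For WD, 1 of 15 regulators was higher (Irf9, 0.79) and 1 lower, beside 17.9% and 12.9% of all genes.

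Neutrophils of the library labelled HHcy had 3 of 9 members higher and 0 lower, where 11.1% of all neutrophil genes were higher and 33.7% lower. The median of all genes was itself -0.26 in this comparison, so every ratio here is to be read against that shift; the median of the members was 0.26. H2-D1 was at 1896, 2863 and 2324 CPM, a log2 ratio of 0.59 (0.52 to 0.67) for HHcy and 0.29 for WD. Psmb8 was at 76.7, 142 and 91.2 CPM, a ratio of 0.89 (0.51 to 1.29) for HHcy and 0.25 for WD. Psmb9 was at 65.4, 138 and 76.4 CPM, a ratio of 1.08 (0.67 to 1.51) for HHcy and 0.22 for WD. The library labelled HHcy was thus highest for all 3, with the WD library nearer to the control. For WD, 0 of 9 members passed, against 12% of genes higher and 20.2% lower, and the members' median was 0.21 beside -0.06 for all genes.

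The mix of neutrophils differed between the libraries along with these values. A cluster led by Il1b, Acod1 and Cxcl2 held 55.7% of control neutrophils, 81.8% of those labelled HHcy and 81.5% of WD ones, and a cluster led by Camp, Ngp and Ltf, granule genes of immature neutrophils, held the rest. H2-D1 was at 2972, 3414 and 2983 CPM in the first and 1051, 1346 and 908 CPM in the second. Within them its ratio for HHcy was 0.20 and 0.36, both under the class value of 0.59. Psmb8 within the first was at 105, 165 and 97.1 CPM, a ratio of 0.65 (0.17 to 1.16) for HHcy. Psmb9 was at 87.2, 151 and 93.1 CPM in the first and at 48.3, 103 and 40.6 CPM in the second, ratios of 0.79 (0.27 to 1.36) and 1.09 (0.38 to 1.84) for HHcy, so it was higher in both clusters. When doublets were kept, 1 of 9 members was past the limit. Neutrophils also held 23 of 23 macrophage and monocyte markers in each library, at summed levels of 5915, 7308 and 6502 CPM, and their part in the result was not tested.

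**Figure D5:**
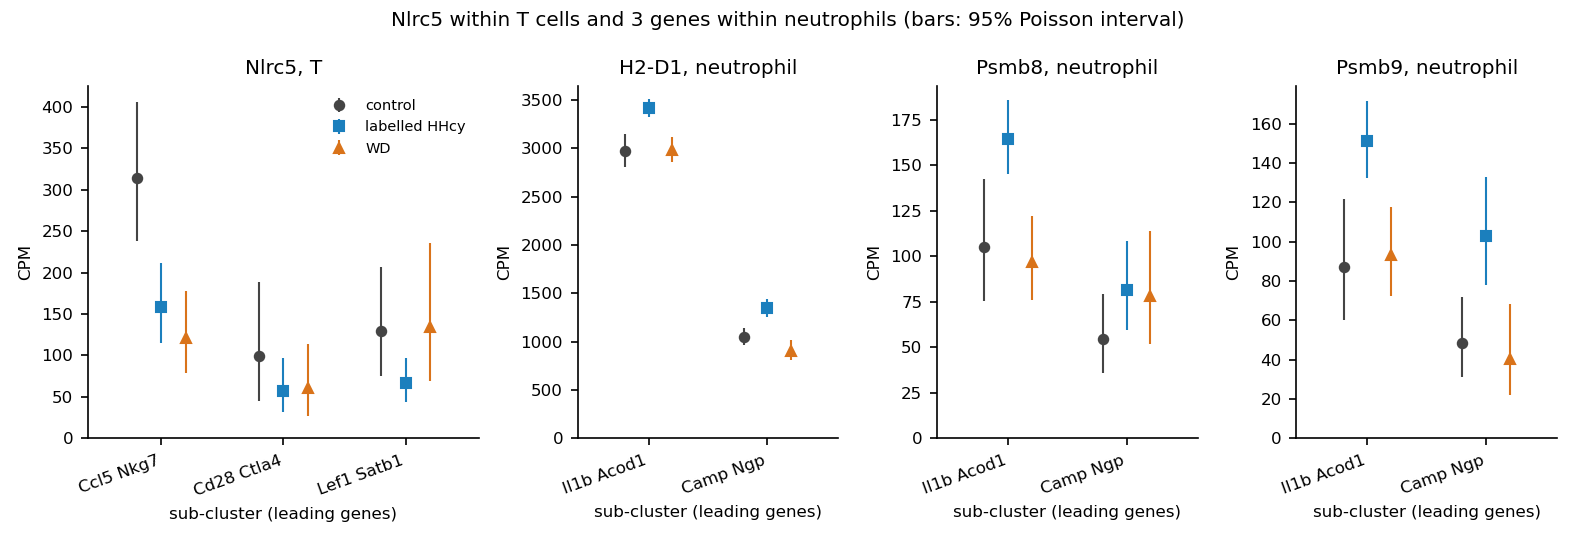
Nlrc5 in 3 T cell sub-clusters and H2-D1, Psmb8 and Psmb9 in 2 neutrophil clusters, in CPM (vertical axes from 0) by library, with 95% Poisson intervals as bars; sub-clusters are named by leading genes. Nlrc5 stands highest at 314 CPM in control T cells led by Ccl5, and Psmb9 in the library labelled HHcy is above the control in both neutrophil clusters.

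Psmb8 and some other members differed more in some macrophage and monocyte sub-clusters than in the class. In resident-like macrophages the log2 ratios of Psmb8 were 0.52 (0.29 to 0.74) for HHcy and 0.77 (0.58 to 0.97) for WD. In foamy-like macrophages of the library labelled HHcy (47 cells against 120 in the control) Psmb8 was at 393 CPM against 210 CPM, a log2 ratio of 0.90, and H2-K1 at 1945 CPM against 1387 CPM, a ratio of 0.49. In WD, with 266 such cells, Psmb8 was at 291 CPM (0.47) and H2-K1 at 1422 CPM (0.04). Nlrc5 differed more for HHcy, at 13.1, 32.2 and 20.6 CPM from 24, 24 and 91 UMIs. So did Psmb9 (77.2, 169 and 97.0 CPM) and Tap1 (60.2, 122 and 76.0 CPM). All 9 members were higher for HHcy there, 4 of them past the limit, and the share of all genes was not measured at this level. Nlrc5 went the other way in classical monocyte-like cells, at 58.7, 31.6 and 32.2 CPM, log2 ratios of -0.89 and -0.87. These sub-clusters were singled out after their values were seen.

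The other genes of the pathway, from lists of relatives and partners, mostly lay within the limit in the large classes. In macrophages and monocytes, all 18 regulators, 11 immunoproteasome genes, 8 loading genes and 10 interferon genes measured were within the limit in both comparisons. Among 12 heavy chain relatives, 2 were higher for HHcy and 2 lower for WD (H2-M2 and Cd1d1, a lipid-presenting chain at -0.57). H2-M2, a non-classical heavy chain, was at 14.8, 36.6 and 4.61 CPM, ratios of 1.30 (1.08 to 1.53) and -1.68 (-1.99 to -1.38). Macrophages led by Cd74 and Mmp12, which were high for H2-M2, made up 2.49%, 4.19% and 0.967% of the class. The part of this mix in the ratios was not tested. Fcgrt, the receptor that recycles antibodies and pairs with B2m, was at 133 CPM in the control and 201 CPM labelled HHcy, a ratio of 0.60. The shares of all genes past the limit in this class were 5.8% higher and 7.53% lower for HHcy and 7.22% and 7.93% for WD. In B cells for HHcy, where 7.04% of all genes were higher and 11.7% lower, 2 of 18 regulators were higher and 2 lower, among them Irf8 at 0.50 and Nfya, a subunit of the factor that binds CCAAT, at -0.83 (64.9 CPM to 36.6 CPM). Of 11 interferon signalling genes, 1 was higher (Ifngr2, 0.64) and 4 lower, with Jak2 at -0.66 and Socs3 at -0.59.

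In neutrophils for HHcy, 4 of 9 heavy chain relatives were higher and 0 lower, where 11.1% of all genes were higher and 33.7% lower. H2-T22 was at 31.6 CPM in the control and 65.6 CPM labelled HHcy, but 24.4% of the stretches at its transcript end also occur in H2-T10, so its counts are uncertain. Of 6 loading genes, 1 was higher and 3 lower: Pdia3, a partner of tapasin, at -0.99, Sec61a1 at -0.76 and the chaperone Hspa5 at -0.54. Among 11 immunoproteasome and activator genes, 2 were higher and 2 lower, with Psme3 at -1.38, Psmb6 at -0.76 and Psme2 at 0.59. For WD, 1 was higher and 5 lower, beside 12% and 20.2% of all genes, with Psma7 at -0.57 and Psme1 at -0.52.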

How the data were processed

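The authors deposited raw UMI counts per gene and cell barcode, with no normalization, for 3 libraries; the labels' protocols name the Chromium 3' kit, version 3. Cell Ranger 4.0.0 is named per the file headers, while the submitters' processing notes name Cell Ranger 2.2.0 and the mm10 build. The annotation is not given in the sources used here. The files held 0 columns of other samples.

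Barcodes with at least 200 genes and at most 10% mitochondrial UMIs passed (6038 control, 8155 labelled HHcy and 6710 WD). Those past the limits of detected markers of 2 or more of 5 lineages were left out as doublets (11.4%, 22.4% and 21.4%); doublets of 1 lineage remain. Used cells had medians of 7570, 6720 and 8175 UMIs. They were clustered together (scanpy 1.11.5, leidenalg 0.10.2, resolution 1, 2000 variable genes, 30 components, 20 neighbours), without mitochondrial, ribosomal, haemoglobin, sex-linked and receptor genes and without the members and lists. Clusters were named from markers, with 3 or more detected in 25% of cells, and 6.21%, 6.27% and 8.04% of cells stayed unnamed. Classes were clustered again for subsets.

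UMIs were summed per class and library and divided by the class total. Intervals (scipy 1.17.1) are exact Poisson for levels, conditional binomial for ratios and Clopper-Pearson for shares, at 95%. The scripts were tested on simulated data. Of the other lists, up to 5 genes a list past 0.5 with an interval off 0 in B cells, T cells, macrophages and monocytes or neutrophils are named, and 1 of them is not reported here. The members and lists were chosen with earlier results of these data known. Alternatives covered scaling, filters, thinning, doublets, cluster resolution, naming, Apoe-rich cells and the mix of sub-clusters.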

Additional observations from a re-analysis of the deposited data

Results flagged for a closer look

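Some listed genes that are not among the 9 members had library ratios of opposite sign in different classes, all in the comparison of the library labelled HHcy with the control. The differences between classes were not tested, and each class is 1 library a group. H2-M2 had a log2 ratio of 1.30 in macrophages and monocytes and -1.48 in conventional dendritic cells (49.9 CPM to 17.9 CPM). Irf8 was at 0.50 in B cells and -1.25 in T cells. Psmb6, the constitutive partner of Psmb9, was at 0.61 in T cells and -0.76 in neutrophils. Socs3 was at -0.59 in B cells. The same gene was at 0.98 in T cells and 0.56 in neutrophils.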

How the results depend on the processing

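No paired analysis was possible because each group has 1 library. The order of classes by mean of each cell's CPM was the same in 260 of 270 pairs, and the highest class in 26 of 27 gene and library combinations, the exception being H2-D1 in WD, where neutrophils came first. The B cell median for HHcy (0.08) was 0.12 under median-of-ratios scaling, 0.0087 with cells thinned to 1000 UMIs, 0.049 by mean of cells and -0.058 with the same mix of sub-clusters. For WD (0.18) it was 0.21 at 20% mitochondrial UMIs, 0.21 at resolution 2, 0.22 thinned and 0.12 with the same mix. The macrophage and monocyte median was -0.15 for HHcy thinned and 0.052 for WD with the same mix, and the T cell median for WD was -0.083 with doublets kept. The number of B cell members higher was 1 for HHcy under median-of-ratios scaling, thinned and at a limit of 0.3, and 2 for WD at 0.3. In macrophages and monocytes 1 was lower for HHcy at 0.3. In T cells 1 was higher for HHcy thinned and at 0.3, 1 higher for WD thinned and at 0.3, 0 lower for HHcy with doublets kept, 3 lower for HHcy at 0.3 and 2 lower for WD at 0.3. The cause was not tested. The other medians stayed inside the counting interval of the 1 member nearest the median, and the other counts were the same in these classes. That interval is not an error of the median, and it is wide in T cells (Tapbp for HHcy, -0.57 to 0.21). Of the member ratios under alternatives, 743 moved by less than their counting error and 116 by more. The 743 include the alternatives that changed only the minimum number of UMIs, which cannot move a ratio. Without cells of 10 or more Apoe UMIs the ratio of Nlrc5 in T cells labelled HHcy was -1.25. The neutrophil alternatives were chosen after seeing the data: 5 members were higher for HHcy under median-of-ratios scaling and 1 with doublets kept, 1 or 2 were higher for WD under several settings, and the HHcy ratios ranged from 0.17 to 0.85 for H2-D1, 0.55 to 1.16 for Psmb8 and 0.41 to 1.34 for Psmb9. T cells and neutrophils were few, which limits the depth of every value given for them.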

Other observations

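H2-Q10, a class I heavy chain relative best known from liver, was concentrated in neutrophils of the aorta. It was at 198, 226 and 237 CPM in neutrophils of the control library, the library labelled HHcy and the WD library, against 5.11 CPM in B cells and 5.56 CPM in macrophages and monocytes of the control library. T cells held up to 51.5 CPM, their WD value. Within neutrophils it stood at 444, 304 and 344 CPM in the cluster led by Il1b and Acod1 and at 6.04, 10.6 and 5.80 CPM in the cluster led by Camp and Ngp. None of 82 stretches at its transcript end occurred in another gene.

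H2-M2 was likewise held by few cell states. In the control library it stood at 281 CPM in mature dendritic-like cells and 304 CPM in macrophages led by Cd74 and Mmp12. Those macrophages held 566 CPM in the library labelled HHcy and 286 CPM in the WD library, and B cells held 2, 4 and 0 UMIs in all. The same macrophages made up 2.49%, 4.19% and 0.967% of the macrophage and monocyte class. Foamy-like macrophages held 106 CPM of H2-M2 in the library labelled HHcy against 6.02 CPM in the control.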
